A study of Mus musculus with 9 samples.

Results

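Genomic imprinting is the expression of a gene from only the copy inherited from the mother or only the copy inherited from the father. In the libraries examined here, 43 mouse imprinted genes were followed. They were chosen by name, as rows of the deposited window table that carry their gene names and as called peaks within 2 kb of them. Of the 43 genes, 25 had at least 1 window assigned by the authors, with 34 windows in all, and 37 had a called peak in at least 1 library. A further 24 windows lay within 2 kb of an imprinted gene but carried the name of another gene, often a small RNA inside the locus, and these are given as nearby windows. The whole table held 17641 windows assigned to 14964 genes, and the imprinted genes held 69 of the 21385 regions made by merging peaks over libraries.

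The study asked how SMNDC1, a splicing factor of the Tudor domain family related to SMN, bears on chromatin and hormone expression in pancreatic cells. The groups were betaTC3, a murine insulin-producing beta cell line with no treatment (n = 2), alphaTC1, a murine glucagon-producing alpha cell line, transduced with Smndc1 shRNA for 5 days (knockdown, n = 2), and alphaTC1 transduced with an empty vector for 5 days (n = 2). Every library was a chromatin immunoprecipitation (ChIP-seq) labelled H3K9me3, trimethylated lysine 9 of histone H3, and each group had 1 input. betaTC3 differs from the empty-vector cells in both cell line and treatment, so these cannot be told apart in that comparison, and immunoprecipitation does not measure how far the Smndc1 transcript was lowered.

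Imprinted genes often lie in clusters, though some lie alone, and a cluster is usually controlled by a stretch of DNA that is methylated on 1 parental copy only. On the methylated copy the zinc finger protein ZFP57 binds a short motif and recruits TRIM28 (KAP1) and the methyltransferase SETDB1, which deposits H3K9me3, whereas the unmethylated copy usually carries marks of active chromatin. Many imprinted genes act in fetal growth, metabolism and neuroendocrine tissue, and pancreatic islets express several of them. The reads were not split by parental copy, and fewer cells with a mark and less mark per cell cannot be told apart.

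The libraries held 4530066 to 9924487 reads in windows and 17129 to 18748 peaks. Values are scaled reads, which are whole reads in a window multiplied by 1 scaling factor per library. The positions go against the label of the antibody: 11562 of the 17641 windows (65.5%) had their lowest coordinate within 1 kb of a gene start, and 71 of 80 ribosomal protein genes, which every cell uses, had a window within 1 kb of an end. The beta cell gene Ins1 had 354 and 314 scaled reads in betaTC3, 0 and 0 in knockdown cells and 1.32 and 0 in empty-vector cells. The alpha cell gene Gcg had 0 and 0 in betaTC3, 352 and 421 in knockdown cells and 340 and 352 in empty-vector cells. Of the windows of beta cell markers, 9 of 12 were called higher and none lower in betaTC3 than in empty-vector cells, and of those of alpha cell markers 8 of 9 were called lower. The exception was the alpha cell marker Ttr, with 130 and 123 in betaTC3, 1.19 and 2.8 in knockdown cells and 0 and 0 in empty-vector cells. Markers of other cells had 5 windows at 3 genes, of which 2 were called higher and 2 lower in betaTC3 than in empty-vector cells. Among them Sst, the somatostatin gene of delta cells, had 107 and 93.3 in betaTC3, 1.19 and 1.4 in knockdown cells and 2.65 and 0 in empty-vector cells at 1 of its windows. Why libraries labelled with a silencing mark had these positions was not tested, so the values below are given as signal in the libraries labelled H3K9me3 and not as a level of heterochromatin.

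The DNA of 7 imprinted promoters is shown because each held the ZFP57 hexamer and lay within 1 kb of a window whose signal differed by more than 2-fold between betaTC3 and empty-vector cells. The hexamer searched was TGCCGC on either strand, read as GCGGCA on the other, with no allowance for methylation. Each sequence runs from 250 bases before to 50 bases after a RefSeq gene start (GRCm38.p6), 5′ to 3′ on the strand of the gene, with the hexamer in capitals. The positions are chr7:60005150-60005449 on the minus strand for Snrpn, chr7:6696383-6696682 on the minus strand for Zim1, chr12:109540746-109541045 on the plus strand for Meg3 and chr6:30737800-30738099 on the plus strand for Mest. They are chr11:12037371-12037670 on the minus strand for Grb10, chr2:157559828-157560127 on the plus strand for Nnat and chr11:22982235-22982534 on the minus strand for Commd1.
Snrpn: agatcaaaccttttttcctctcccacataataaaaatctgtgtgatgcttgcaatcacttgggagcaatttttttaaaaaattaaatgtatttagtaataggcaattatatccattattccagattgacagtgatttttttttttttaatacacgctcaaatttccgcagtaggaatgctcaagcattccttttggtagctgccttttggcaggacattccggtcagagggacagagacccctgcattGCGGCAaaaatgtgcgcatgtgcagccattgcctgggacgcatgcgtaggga
Zim1: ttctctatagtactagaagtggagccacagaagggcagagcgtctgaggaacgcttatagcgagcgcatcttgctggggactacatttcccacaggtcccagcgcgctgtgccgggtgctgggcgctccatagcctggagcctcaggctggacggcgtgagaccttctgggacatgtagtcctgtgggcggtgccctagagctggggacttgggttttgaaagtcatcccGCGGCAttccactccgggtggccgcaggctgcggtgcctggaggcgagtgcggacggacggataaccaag
Meg3: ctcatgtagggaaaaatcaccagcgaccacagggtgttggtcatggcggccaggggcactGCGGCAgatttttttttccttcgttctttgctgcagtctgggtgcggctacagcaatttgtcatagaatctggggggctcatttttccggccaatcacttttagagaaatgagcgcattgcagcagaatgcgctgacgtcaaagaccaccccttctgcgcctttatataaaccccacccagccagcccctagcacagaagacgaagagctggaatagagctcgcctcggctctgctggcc
Mest: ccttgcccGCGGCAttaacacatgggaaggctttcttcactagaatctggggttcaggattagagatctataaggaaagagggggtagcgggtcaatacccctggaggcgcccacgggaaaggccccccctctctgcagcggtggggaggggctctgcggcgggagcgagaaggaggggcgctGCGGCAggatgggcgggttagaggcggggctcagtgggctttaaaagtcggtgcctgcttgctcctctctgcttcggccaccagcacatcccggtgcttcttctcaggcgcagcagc
Grb10: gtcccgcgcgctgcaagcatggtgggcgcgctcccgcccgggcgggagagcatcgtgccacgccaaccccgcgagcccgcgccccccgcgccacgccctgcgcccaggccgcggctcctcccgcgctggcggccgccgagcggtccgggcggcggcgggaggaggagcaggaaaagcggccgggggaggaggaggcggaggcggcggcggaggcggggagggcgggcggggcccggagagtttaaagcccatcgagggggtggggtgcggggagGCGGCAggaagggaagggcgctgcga
Nnat: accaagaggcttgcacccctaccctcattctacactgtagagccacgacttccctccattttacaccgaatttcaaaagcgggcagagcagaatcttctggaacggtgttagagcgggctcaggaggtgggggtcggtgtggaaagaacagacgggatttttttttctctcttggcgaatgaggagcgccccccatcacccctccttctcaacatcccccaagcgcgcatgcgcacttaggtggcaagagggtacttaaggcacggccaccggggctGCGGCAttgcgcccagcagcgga
Commd1: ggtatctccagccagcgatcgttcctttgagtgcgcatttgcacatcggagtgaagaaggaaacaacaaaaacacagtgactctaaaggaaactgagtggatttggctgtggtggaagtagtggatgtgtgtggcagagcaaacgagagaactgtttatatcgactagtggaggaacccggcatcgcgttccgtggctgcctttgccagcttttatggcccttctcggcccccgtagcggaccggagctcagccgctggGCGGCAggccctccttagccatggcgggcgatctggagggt

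Of the 51 RefSeq promoters found for imprinted genes, 14 (27.5%) held the hexamer, against 3813 of all 32851 promoters (11.6%). Per gene, 13 of 34 imprinted genes with a promoter entry (38.2%) held it in at least 1 promoter, against 13.1% of all 27025 genes. Among promoters within 1 kb of a window, 12 of 28 of the imprinted genes (42.9%) and 2751 of all 12978 (21.2%) held it. The hexamer contains a CpG, and the median number of CpG in these 300 bases was 14 for imprinted promoters and 7 for all promoters, but 17 and 22 among those within 1 kb of a window. The part of base composition in the shares was not tested. The Mest promoter held 2 copies and the other 6 printed promoters 1 copy each, and their windows were higher in betaTC3 for Nnat and Meg3 and lower for the other 5. These letters are a description and show no binding.

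Between betaTC3 and empty-vector cells, signal at imprinted genes differed often and in both directions. Of the 34 assigned windows, 24 (70.6%) passed an adjusted p below 0.05 in limma, 13 higher and 11 lower in betaTC3. The background was 55.2% of all 17641 windows called, with 22.1% higher and 33.2% lower. With each library centred on its median the imprinted windows gave 16 higher and 13 lower, and all windows gave 6050 higher and 5623 lower in place of 3893 and 5851. The median log2 difference of the imprinted windows was 0.37, with a range of -8.29 to 8.66, against a median of -0.13 over all windows. Differences beyond 3 on the log2 scale were found in 10 of the 34 windows (29.4%) and in 19.6% of all windows. Of the 24 nearby windows, 7 were higher and 11 lower. In 31 of the 34 assigned windows the betaTC3 and empty-vector libraries did not overlap, as in 82.8% of all windows. Nothing states that the replicates were separate cultures, and p-values then reflect the spread among the deposited libraries only, which may be technical.

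**Figure D1:**
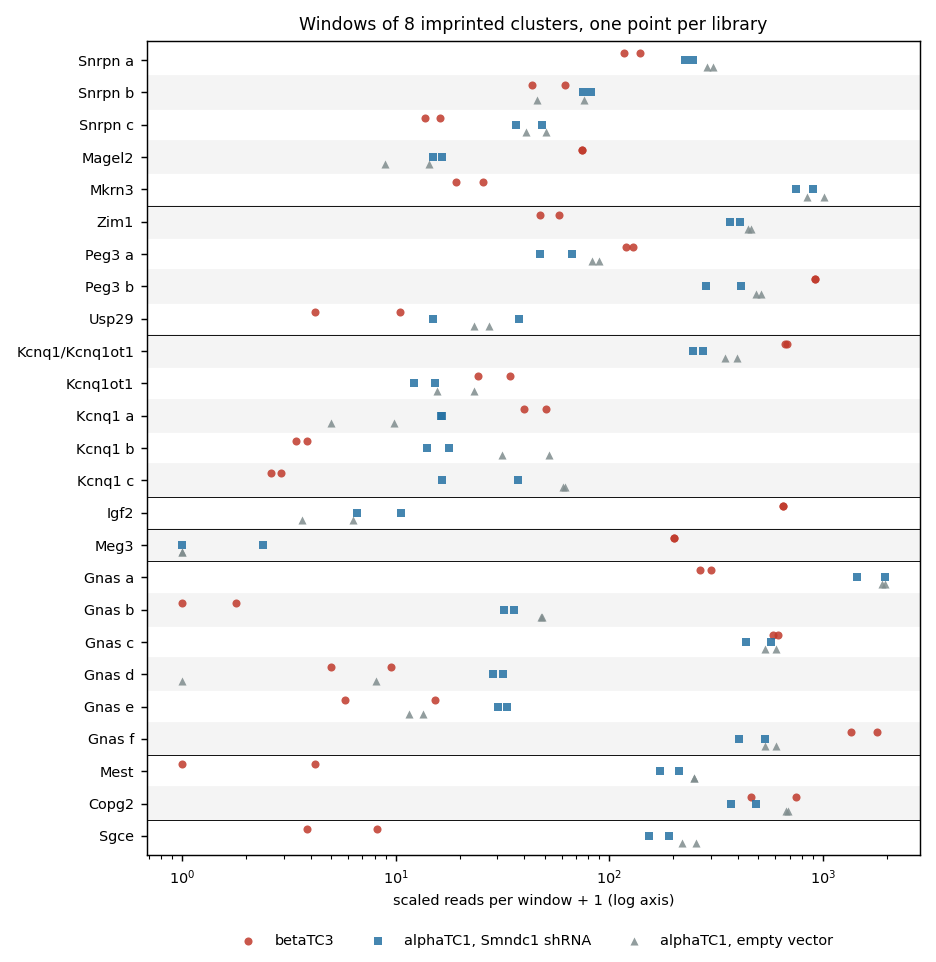
Scaled reads plus 1 (log axis) in each library for the assigned and nearby windows of 8 imprinted clusters, separated by lines, with betaTC3 as circles, Smndc1 shRNA as squares and empty vector as triangles; letters order the windows of a gene along the chromosome. The betaTC3 libraries stand apart from all 4 alphaTC1 libraries at Mkrn3, Zim1, Igf2, Meg3, Mest and Sgce.

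The Snrpn cluster is the region whose human counterpart is lost in Prader-Willi syndrome, and its members are expressed from the paternal copy. Snrpn encodes a small nuclear ribonucleoprotein of the splicing machinery, and its start, shared with Snurf, is the imprinting control region. The window there (chr7:60004493-60004893, 506 bp past the RefSeq start, within the gene) had 117 and 139 scaled reads in betaTC3, 225 and 245 in knockdown cells and 285 and 307 in empty-vector cells. The betaTC3 libraries were the lowest, and no group overlapped another. The log2 difference betaTC3 minus empty vector was -1.21 ± 0.15 (SE; limma adjusted p = 0.000671).

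Mkrn3, a makorin RING finger E3 ligase, differed far more in the same cluster. Its start window (chr7:62419696-62420096, inside the gene) had 24.8 and 18.1 scaled reads in betaTC3, 752 and 900 in knockdown cells and 843 and 1009 in empty-vector cells. Both betaTC3 libraries lay far below all alphaTC1 libraries, while the alphaTC1 groups overlapped. Signal was 43.3-fold lower in betaTC3 than in empty-vector cells (log2 -5.38 ± 0.20, limma adjusted p = 6.79e-06). Magel2, a regulator of endosomal protein recycling, went the other way at a window 93 bp past its 3′ end, with 73.5 and 73.3 in betaTC3, 15.5 and 14 in knockdown cells and 7.94 and 13.3 in empty-vector cells (log2 2.72 ± 0.31, limma adjusted p = 0.00038). Here betaTC3 was high and did not overlap the alphaTC1 libraries. The ratio of Mkrn3 to Snrpn start signal was 0.212 and 0.13 in betaTC3, 3.35 and 3.68 in knockdown cells and 2.96 and 3.29 in empty-vector cells, so the cluster did not shift as a block. Of 2 more windows nearby Snrpn, the one at chr7:60391385-60391785 was lower in betaTC3 (log2 -1.60 ± 0.27, limma adjusted p = 0.00267), with 12.8 and 15.2 scaled reads in betaTC3, 35.8 and 47.5 in knockdown cells and 39.7 and 49.7 in empty-vector cells. The window at chr7:60243573-60243973 had 42.3 and 60.9 in betaTC3, 81.2 and 74.1 in knockdown cells and 45 and 75.5 in empty-vector cells, and betaTC3 overlapped empty vector (limma adjusted p = 0.629). A further region within Snrpn (chr7:60155438-60155862) had no window but a called peak in all 6 libraries. Its fold over background, as given by the authors, was 25.5 and 13.2 in betaTC3, 15.2 and 24.1 in knockdown cells and 33.8 and 23.8 in empty-vector cells. Ndn (necdin, a growth suppressor of neurons) and Peg12 had no peak in any library.

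In the Peg3 cluster the signal of neighbouring genes was divided by cell line. Peg3, a paternally expressed zinc finger protein, shares its start region with Usp29, a deubiquitinating enzyme. The Peg3 window at chr7:6729937-6730337, 282 bp past the RefSeq start, had 918 and 915 scaled reads in betaTC3, 284 and 414 in knockdown cells and 487 and 512 in empty-vector cells. betaTC3 was highest and no group overlapped another (log2 betaTC3 minus empty vector 0.87 ± 0.19, limma adjusted p = 0.0076). This call was lost without any 1 of the 4 libraries compared, with limma adjusted p between 0.0539 and 0.0872. Further inside Peg3, a window with 129 and 119 in betaTC3, 46.6 and 65.7 in knockdown cells and 82.1 and 88.8 in empty-vector cells did not pass (log2 0.53 ± 0.22, limma adjusted p = 0.0871). This inner Peg3 window was called higher in betaTC3 with the libraries centred, with only the groups compared, without either knockdown library, by edgeR and by DESeq2 (adjusted p between 0.00621 and 0.0394).

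Zim1, a maternally expressed zinc finger gene next to Peg3, was low in betaTC3. Its start window (chr7:6696095-6696495) had 46.3 and 57.1 scaled reads in betaTC3, 369 and 409 in knockdown cells and 447 and 462 in empty-vector cells. All alphaTC1 libraries lay above both betaTC3 libraries, an 8.79-fold difference between betaTC3 and empty vector (log2 -3.12 ± 0.16, limma adjusted p = 1.39e-05). The ratio of Peg3 to Zim1 start signal was 19.8 and 16.0 in betaTC3, 0.77 and 1.01 in knockdown cells and 1.09 and 1.11 in empty-vector cells. The widest called peak at Zim1 was 268 and 283 bp in betaTC3, 4179 and 3857 bp in knockdown cells and 3773 and 3510 bp in empty-vector cells. A faint window near the far end of Usp29 had 3.19 and 9.52 in betaTC3, 37.0 and 14 in knockdown cells and 26.5 and 22.2 in empty-vector cells. Its call (log2 -1.93 ± 0.59, limma adjusted p = 0.0297) was lost without any 1 of the betaTC3 or empty-vector libraries, at adjusted p between 0.0565 and 0.228, by edgeR at 0.053 and DESeq2 at 0.092, with the replicate block at 0.054, with the libraries centred at 0.0547 and at a pseudocount of 0.1 at 0.0517. Its log2 difference was -1.26 without betaTC3 replicate 1 and -2.59 without betaTC3 replicate 2.

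The Kcnq1 cluster is silenced in part by Kcnq1ot1, a paternal non-coding RNA that starts inside Kcnq1, the gene of a potassium channel. The window 1129 bp past the Kcnq1ot1 start (chr7:143295218-143295618) had 664 and 678 scaled reads in betaTC3, 247 and 275 in knockdown cells and 346 and 395 in empty-vector cells. The groups did not overlap and betaTC3 was highest (log2 betaTC3 minus empty vector 0.86 ± 0.13, limma adjusted p = 0.00174). The assigned Kcnq1ot1 window, 330 bp before the start, had 23.2 and 33.3 in betaTC3, 14.3 and 11.2 in knockdown cells and 14.6 and 22.2 in empty-vector cells, and did not pass between betaTC3 and empty vector (limma adjusted p = 0.177).

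Farther along Kcnq1 the signal was weak, and different windows were high in different lines. The window at chr7:143367713-143368113 within the gene had 39.1 and 49.5 scaled reads in betaTC3, 15.5 and 15.4 in knockdown cells and 3.97 and 8.88 in empty-vector cells (log2 betaTC3 minus empty vector 2.68 ± 0.38, limma adjusted p = 0.00113). A pair of windows just past the gene's end were nearly empty in betaTC3. The window at chr7:143428756-143429156 had 1.60 and 1.90 in betaTC3, 15.5 and 36.3 in knockdown cells and 59.6 and 61.3 in empty-vector cells (log2 -4.48 ± 0.41, limma adjusted p = 0.000155). Its neighbour at chr7:143428191-143428591 had 2.4 and 2.85 in betaTC3, 13.1 and 16.8 in knockdown cells and 30.5 and 51.5 in empty-vector cells (log2 -3.49 ± 0.34, limma adjusted p = 0.000209). In both, the knockdown libraries lay between the other groups. Cdkn1c, a maternally expressed inhibitor of cyclin-dependent kinases, had no window and a peak only in knockdown replicate 2.

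H19 and Igf2, the non-coding RNA and the insulin-like growth factor that share enhancers, differed from each other. H19 had no peak in any library. At Igf2 a window 120 bp past a RefSeq start (chr7:142658484-142658884) had 649 and 651 scaled reads in betaTC3, 9.56 and 5.59 in knockdown cells and 2.65 and 5.33 in empty-vector cells. It was high in betaTC3 and near the floor of 3 reads in alphaTC1, a 163-fold difference between betaTC3 and empty vector (log2 7.08 ± 0.37, limma adjusted p = 1.50e-05). The called peak spanned up to 5582 bp in betaTC3, and no alphaTC1 library had a peak within 2 kb of Igf2.

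The Dlk1-Meg3 cluster on chromosome 12 had 1 window, at Meg3, a maternally expressed non-coding RNA known in islets. Its start window (chr12:109541233-109541633) had 201 and 200 scaled reads in betaTC3, 0 and 1.40 in knockdown cells and 0 and 0 in empty-vector cells. Signal was present in betaTC3 and at or under the floor in alphaTC1, at least 60.4-fold higher in betaTC3 than in empty-vector cells (limma adjusted p = 2.12e-05). Dlk1, a Notch-like ligand, Rtl1, a retrotransposon-derived gene, and Rian, a host of small nucleolar RNAs, had no peak in any library. Mirg, a host of microRNAs, had a peak only in knockdown replicate 2, of 4.6-fold over background (the authors' value).

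Gnas encodes the alpha subunit of the stimulatory G protein and uses several alternative starts, some maternal, some paternal and some used from both copies. The most upstream start makes the maternal transcript of a neuroendocrine secretory protein. Its window (chr2:174284622-174285022) had 264 and 298 scaled reads in betaTC3, 1445 and 1947 in knockdown cells and 1888 and 1962 in empty-vector cells. betaTC3 lay 6.85-fold below empty vector (log2 -2.77 ± 0.18, limma adjusted p = 3.54e-05), and the alphaTC1 groups overlapped. The most downstream start had the opposite order, with 1803 and 1359 in betaTC3, 405 and 535 in knockdown cells and 602 and 534 in empty-vector cells (chr2:174330555-174330955, log2 1.46 ± 0.20, limma adjusted p = 0.00105). The ratio of downstream to upstream signal was 6.82 and 4.56 in betaTC3, 0.28 and 0.275 in knockdown cells and 0.319 and 0.272 in empty-vector cells.

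Between these starts of Gnas, a window near the antisense gene Gnasas1 differed little, with 584 and 620 scaled reads in betaTC3, 437 and 570 in knockdown cells and 538 and 604 in empty-vector cells (log2 betaTC3 minus empty vector 0.08 ± 0.16). A faint window at chr2:174294305-174294705 had 0.799 and 0 in betaTC3, 31.1 and 34.9 in knockdown cells and 47.7 and 47.1 in empty-vector cells, a pooled ratio of 109-fold lower in betaTC3 than in empty vector (95% counting interval 19.1 to 4350). The peak over the upstream start was 2571 and 3052 bp wide in betaTC3, 14588 and 13628 bp in knockdown cells and 13812 and 14095 bp in empty-vector cells. In the alphaTC1 libraries it ranked between 6 and 9 among all peaks by width, and it was the widest peak of any imprinted gene. Over the downstream start the widest peak was 5684 and 5835 bp in betaTC3, 7510 and 7188 bp in knockdown cells and 5898 and 5836 bp in empty-vector cells, so the widths there stood closer together.

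Mest, a paternally expressed enzyme of the alpha/beta hydrolase family, had its window 730 bp past a RefSeq start (chr6:30738583-30738983). It had 3.19 and 0 scaled reads in betaTC3, 172 and 211 in knockdown cells and 248 and 249 in empty-vector cells. The betaTC3 libraries were near the floor and all alphaTC1 libraries high, 155-fold lower in betaTC3 than in empty vector (log2 -6.93 ± 0.62, limma adjusted p = 0.000133). The log2 difference was -7.96 without betaTC3 replicate 1 and -5.89 without betaTC3 replicate 2. Copg2, a coatomer subunit whose gene overlaps the end of Mest, had 751 and 459 in betaTC3, 373 and 484 in knockdown cells and 684 and 673 in empty-vector cells, which overlapped (limma adjusted p = 0.516).

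Peg10, a retrotransposon-derived gene, and Sgce, the gene of epsilon-sarcoglycan, start head to head and shared 1 window (chr6:4746654-4747054, inside Sgce). It had 7.19 and 2.85 scaled reads in betaTC3, 153 and 189 in knockdown cells and 218 and 255 in empty-vector cells. Signal was low in betaTC3 and high in alphaTC1 with no overlap, 47.1-fold lower in betaTC3 than in empty vector (log2 -5.40 ± 0.37, limma adjusted p = 4.43e-05). Since the starts lie side by side, the signal could not be given to either gene.

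Outside these clusters, signal was high in betaTC3 and nearly absent from alphaTC1 at Nnat, Rasgrf1, Peg13 and a start of Zdbf2. Nnat, neuronatin, a small membrane protein of the endoplasmic reticulum that acts in insulin secretion, had 240 and 211 scaled reads in betaTC3, 0 and 0 in knockdown cells and 2.65 and 0 in empty-vector cells. This was a pooled ratio of 213-fold higher in betaTC3 than in empty vector (95% counting interval 58.7 to 1766; limma adjusted p = 0.000107). The fitted log2 difference of 6.89 became 7.82 without empty vector replicate 1 and 5.95 without empty vector replicate 2. Blcap, the gene in whose intron Nnat lies, had 2295 and 2080 in betaTC3, 2062 and 2613 in knockdown cells and 3109 and 3215 in empty-vector cells, and did not pass (log2 -0.53, limma adjusted p = 0.0824). Blcap was called lower in betaTC3 with the libraries centred, with only the groups compared, without either knockdown library, by edgeR and by DESeq2 (adjusted p between 0.00125 and 0.00951). Blcap had strong signal in both lines, and Nnat in betaTC3.

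Rasgrf1, a guanine nucleotide exchange factor for Ras, had 419 and 388 scaled reads at its start in betaTC3 and 0 in all 4 alphaTC1 libraries, at least 122-fold higher in betaTC3 than in empty vector (limma adjusted p = 6.30e-06). A second Rasgrf1 window inside the gene had 99.8 and 152 in betaTC3 and 0 in all alphaTC1 libraries, at least 38.0-fold higher. Peg13, a non-coding RNA inside Trappc9, had 224 and 217 in betaTC3, 1.19 and 0 in knockdown cells and 5.30 and 1.78 in empty-vector cells (log2 5.73 ± 0.52, limma adjusted p = 0.000149; 6.32 and 5.14 without empty vector replicate 1 or 2). Trappc9, a subunit of a vesicle trafficking complex, had 1891 and 1864 at its start in betaTC3, 903 and 1111 in knockdown cells and 1483 and 1502 in empty-vector cells, and did not pass (log2 0.33 ± 0.17, limma adjusted p = 0.141). That Trappc9 window was called higher in betaTC3 with the libraries centred, with only the groups compared, without either knockdown library, by edgeR and by DESeq2 (adjusted p between 4.9e-08 and 0.0182). The other Peg13 window, past the end of the gene, had 43.9 and 44.7 in betaTC3 against 17.2 and 21.3 in empty-vector cells and did not pass (log2 1.17 ± 0.51, limma adjusted p = 0.098). It was called higher in betaTC3 under the same 6 alternatives and at a pseudocount of 10 (adjusted p between 0.00369 and 0.0412). A window upstream of Trappc9 had 61.5 and 59.0 in betaTC3, 39.4 and 39.1 in knockdown cells and 30.5 and 32.8 in empty-vector cells (log2 0.91 ± 0.21, limma adjusted p = 0.0106). Without empty vector replicate 1 the adjusted p of the upstream window was 0.0537.

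Zdbf2, a paternally expressed zinc finger gene with a distant upstream start for a longer transcript, had its signal at different positions in the lines. The window 466 bp past its inner start (chr1:63273535-63273935) had 883 and 409 scaled reads in betaTC3 and 0 in all 4 alphaTC1 libraries, at least 195-fold higher in betaTC3 than in empty vector (limma adjusted p = 8.99e-06). The window 16003 bp before that start had 1.60 and 4.76 in betaTC3, 193 and 175 in knockdown cells and 179 and 202 in empty-vector cells, 60.0-fold lower in betaTC3 than in empty vector (limma adjusted p = 4.18e-05). Each line had 1 of the positions and not the other. A fainter window 4684 bp past the distant start had 4.79 and 7.61 in betaTC3, 28.7 and 12.6 in knockdown cells and 30.5 and 33.7 in empty-vector cells, a call (log2 -2.23 ± 0.43, limma adjusted p = 0.00468) lost without betaTC3 replicate 1 (adjusted p = 0.0762).

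Grb10 and the outer start of Slc38a4 had signal in alphaTC1 and nearly none in betaTC3. Slc38a4, an amino acid transporter, had 0.799 and 0 scaled reads in the window 1253 bp past its outer start in betaTC3, 327 and 422 in knockdown cells and 397 and 444 in empty-vector cells. The pooled ratio was 979-fold lower in betaTC3 than in empty vector (95% counting interval 175 to 38720; limma adjusted p = 7.59e-06). The window 639 bp past the inner start of Slc38a4 had 533 and 561 in betaTC3, 299 and 319 in knockdown cells and 391 and 372 in empty-vector cells (log2 0.52 ± 0.12, limma adjusted p = 0.0102). The call at the inner start was lost without empty vector replicate 1 or 2, at adjusted p of 0.0619 and 0.0912. Grb10, an adaptor that restrains insulin receptor signalling, had 0 and 0.952 in betaTC3, 27.5 and 29.3 in knockdown cells and 35.7 and 41.7 in empty-vector cells at its start (log2 -4.83 ± 0.38, limma adjusted p = 7.49e-05). A second Grb10 window 777 bp past the start had 0 and 0.952 in betaTC3, 33.4 and 44.7 in knockdown cells and 43.7 and 49.7 in empty-vector cells (log2 -5.09 ± 0.39, limma adjusted p = 6.81e-05).

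Several other imprinted genes had a called peak in each of the 6 libraries. Inpp5f, a phosphoinositide phosphatase, had 775 and 577 scaled reads at its start in betaTC3, 92.0 and 113 in knockdown cells and 179 and 149 in empty-vector cells (log2 2.03 ± 0.20, limma adjusted p = 0.000234). The Inpp5f window just before that start had 28.0 and 38.1 in betaTC3, 9.56 and 2.80 in knockdown cells and 7.94 and 6.21 in empty-vector cells (log2 2.07 ± 0.51, limma adjusted p = 0.0128), a call lost without betaTC3 replicate 1, betaTC3 replicate 2 or empty vector replicate 2 (adjusted p between 0.0782 and 0.129). Near the far end of Inpp5f, where a shorter imprinted transcript begins, 314 and 260 in betaTC3 stood against 109 and 103 in knockdown cells and 142 and 146 in empty-vector cells (log2 0.98 ± 0.16, limma adjusted p = 0.00206). Of the other nearby windows of Inpp5f, the one at chr7:128672827-128673227 had 12.8 and 14.3 in betaTC3, 22.7 and 37.7 in knockdown cells and 29.1 and 39.1 in empty-vector cells (log2 -1.26 ± 0.33, limma adjusted p = 0.0167). Its call was lost without either betaTC3 library, without empty vector replicate 2 and by DESeq2 (adjusted p between 0.0765 and 0.116).

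Plagl1, a zinc finger factor linked to transient neonatal diabetes, had 1036 and 1052 scaled reads in betaTC3, 489 and 544 in knockdown cells and 662 and 738 in empty-vector cells. betaTC3 was highest and the groups did not overlap (log2 0.58 ± 0.13, limma adjusted p = 0.00994). The Plagl1 call was lost without betaTC3 replicate 2 or either empty-vector library (adjusted p between 0.051 and 0.108). At Impact, a regulator of translation through the kinase GCN2, the nearby window chr18:12955796-12956196 did not pass (log2 -0.25 ± 0.15, limma adjusted p = 0.197). Neither did the assigned window chr18:12974519-12974919 (log2 0.40 ± 0.30, limma adjusted p = 0.299). The window chr18:12972557-12972957 had 343 and 335 in betaTC3, 193 and 170 in knockdown cells and 240 and 247 in empty-vector cells. It was called higher in betaTC3 (log2 0.48 ± 0.13, limma adjusted p = 0.0223). This call was lost without any 1 of the betaTC3 or empty-vector libraries (log2 between 0.46 and 0.5). Mcts2, a retrogene inside H13, had 303 and 323 in betaTC3, 124 and 164 in knockdown cells and 217 and 223 in empty-vector cells (log2 0.51 ± 0.17, limma adjusted p = 0.0426), also lost without any of these 4 libraries (adjusted p between 0.133 and 0.177) and by limma without the intensity trend (0.0654). A Mcts2 window 615 bp before the start was lower in betaTC3, with 13.6 and 16.2 in betaTC3, 16.7 and 19.6 in knockdown cells and 30.5 and 35.5 in empty-vector cells (log2 -1.10 ± 0.26, limma adjusted p = 0.0116). Without empty vector replicate 2 its adjusted p was 0.0552, and by DESeq2 it was 0.147.

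Lower signal in betaTC3 was found at Nap1l5, Zrsr1, Commd1 and Airn. Nap1l5, a nucleosome assembly protein-like gene inside Herc3, had 297 and 352 scaled reads in betaTC3, 418 and 467 in knockdown cells and 536 and 545 in empty-vector cells (log2 -0.74 ± 0.14, limma adjusted p = 0.00421). Zrsr1, a retrogene related to the splicing factor U2AF inside Commd1, had 371 and 421 in betaTC3, 621 and 678 in knockdown cells and 647 and 725 in empty-vector cells (log2 -0.79 ± 0.14, limma adjusted p = 0.00282). The start of Commd1, a copper metabolism protein, had 446 and 489 in betaTC3, 788 and 899 in knockdown cells and 982 and 1073 in empty-vector cells (log2 -1.13 ± 0.14, limma adjusted p = 0.000577). In these 3 genes the betaTC3 libraries lay below all alphaTC1 libraries. Airn, the paternal non-coding RNA that starts inside Igf2r, had 383 and 382 in betaTC3, 393 and 422 in knockdown cells and 518 and 550 in empty-vector cells (log2 -0.48 ± 0.12, limma adjusted p = 0.0139). That call was lost without either empty-vector library (adjusted p of 0.0716 and 0.116) and by DESeq2 (0.131). Igf2r, the receptor that clears insulin-like growth factor 2, Herc3, a ubiquitin ligase, and H13, a signal peptide peptidase, had windows at their starts that did not pass between betaTC3 and empty vector, with log2 differences of -0.68 ± 0.33, -0.12 ± 0.17 and -0.51 ± 0.20. H13 had 1582 and 1527 in betaTC3, 1396 and 1799 in knockdown cells and 2102 and 2337 in empty-vector cells (limma adjusted p = 0.0647). It was called lower in betaTC3 at a pseudocount of 10, with the libraries centred, with only the groups compared, without either knockdown library, by edgeR and by DESeq2 (adjusted p between 0.00391 and 0.049). Cdh15, a cadherin of muscle, had no window and a peak only in betaTC3 replicate 2.

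**Figure D2:**
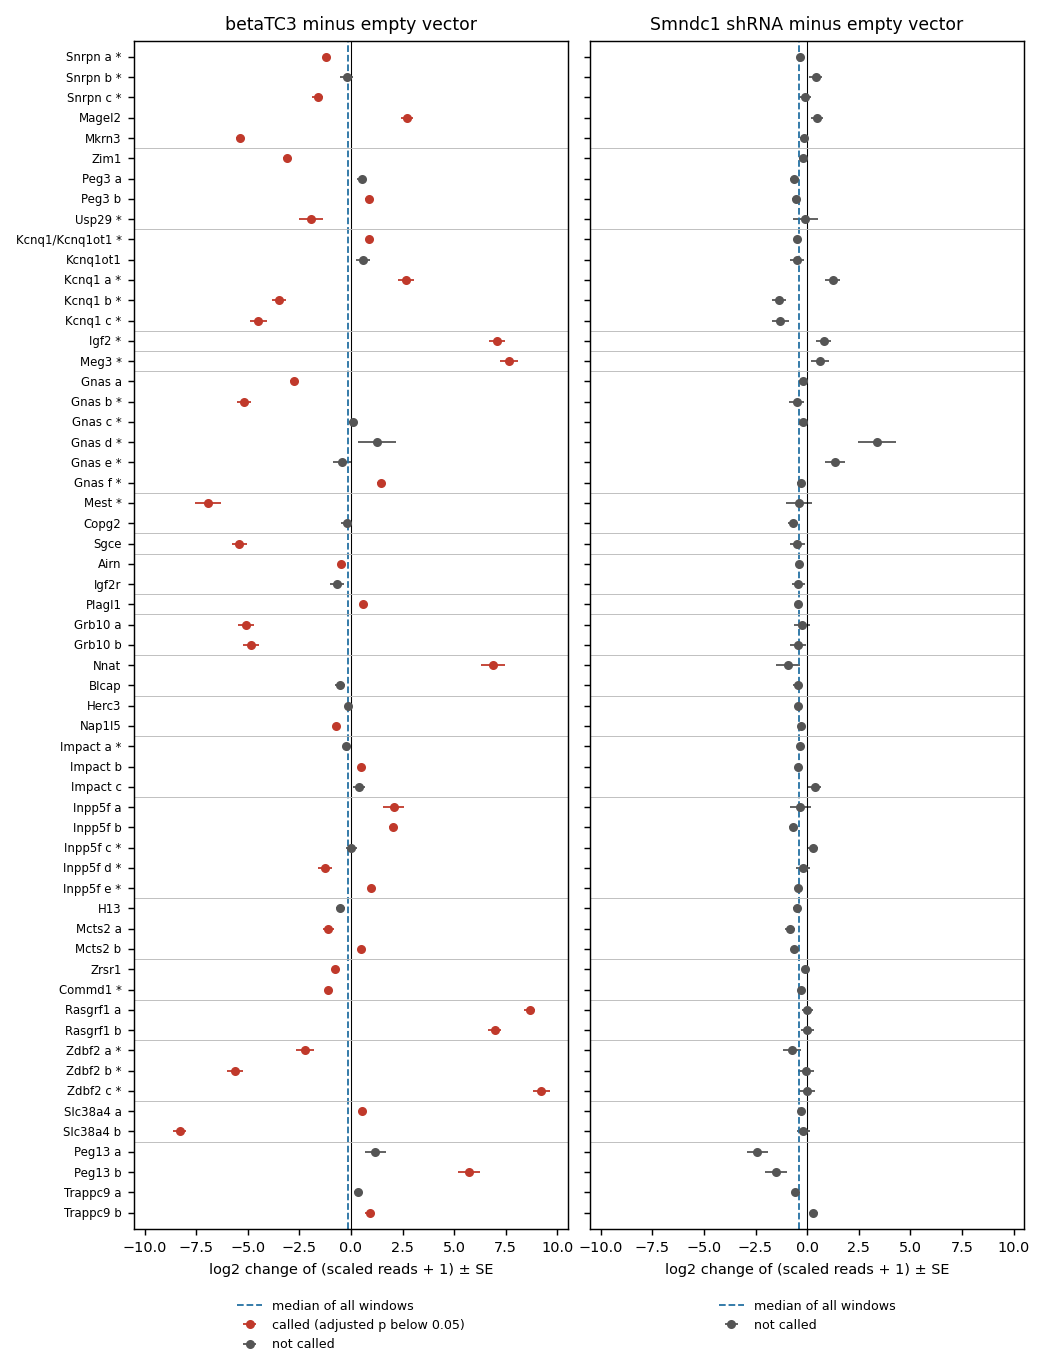
Log2 change of (scaled reads + 1) with its SE for the 34 assigned and 24 nearby windows (asterisk), grouped by cluster, for betaTC3 minus empty vector (left) and Smndc1 shRNA minus empty vector (right), with called windows in red and the median of all windows as a dashed line. The left panel spans -8.29 to 9.23 and the right -2.41 to 3.40, with no called window on the right.

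Large chromosome-wide differences stood beside some of these values. Over windows with a mean above 100 scaled reads, the median log2 difference betaTC3 minus empty vector was -0.59 on chromosome 7, which holds the Snrpn, Peg3, Kcnq1 and Igf2 clusters, -0.73 on chromosome 11, -0.43 on chromosome 6 and 0.42 on chromosome 12, against -0.15 over all such windows. Their part in the smaller differences, such as those of Zrsr1, Nap1l5 and Peg3, was not tested.

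Called peaks also divided the imprinted genes by cell line. Between 28 and 30 of the 43 genes had a peak within 2 kb in each library (65.1% to 69.8%), against 43.3% to 44.6% of RefSeq genes. Igf2, Magel2, Meg3, Nnat, Peg13 and Rasgrf1 had a peak in both betaTC3 libraries and in none of the 4 alphaTC1 libraries, 6 of 43 genes against a background of 3.16% of 34610 RefSeq genes. Grb10, Mest, Mkrn3, Peg10 and Sgce had a peak in all 4 alphaTC1 libraries and in neither betaTC3 library, 5 of 43 against a background of 2.17%. Against the empty vector alone the same 6 and 5 genes were counted, with backgrounds of 3.46% and 2.38%, and likewise against the knockdown alone, with 3.26% and 2.56%. At 23 genes each of the 6 libraries had a peak within 2 kb, against 40.1% of RefSeq genes, and 6 genes had none (background 51.5%). These peaks need not share a position, and at Zdbf2, which is among the 23, no region was found in all 6 libraries. Overlapping members, such as Peg10 and Sgce, Blcap and Nnat, or Igf2r and Airn, can share a peak and are not independent. Of the 69 merged regions, 28 (40.6%) were found in all 6 libraries, 11 (15.9%) in both betaTC3 libraries alone and 10 (14.5%) in the 4 alphaTC1 libraries alone. Over all 21385 regions these shares were 57.9%, 10.8% and 8.63%. With 2 lists a group no exact test of these counts can pass.

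**Figure D3:**
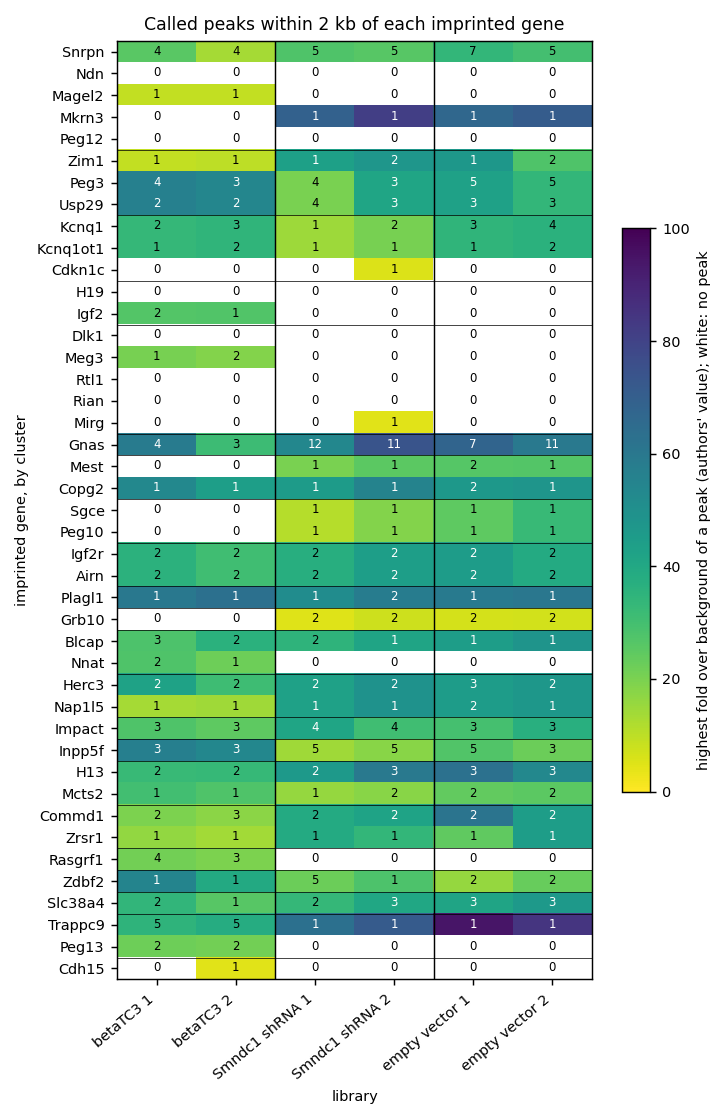
Number of called peaks within 2 kb of each of the 43 imprinted genes in the 6 libraries (printed numbers), coloured by the highest fold over background that the authors gave a peak there, with white for no peak. Igf2, Meg3, Nnat, Peg13, Rasgrf1 and Magel2 are coloured only in betaTC3, and Mkrn3, Mest, Sgce, Peg10 and Grb10 only in alphaTC1.

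The same loci differed in where the peaks lay. At Zdbf2 the betaTC3 peak over the inner start was 2161 and 2302 bp wide, and the alphaTC1 peak upstream of it was 1524 and 1455 bp wide in knockdown cells and 1428 and 1275 bp in empty-vector cells. At Peg3 the widest peak was 4931 and 5002 bp in betaTC3, 3854 and 3796 bp in knockdown cells and 4086 and 3315 bp in empty-vector cells.

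**Figure D4:**
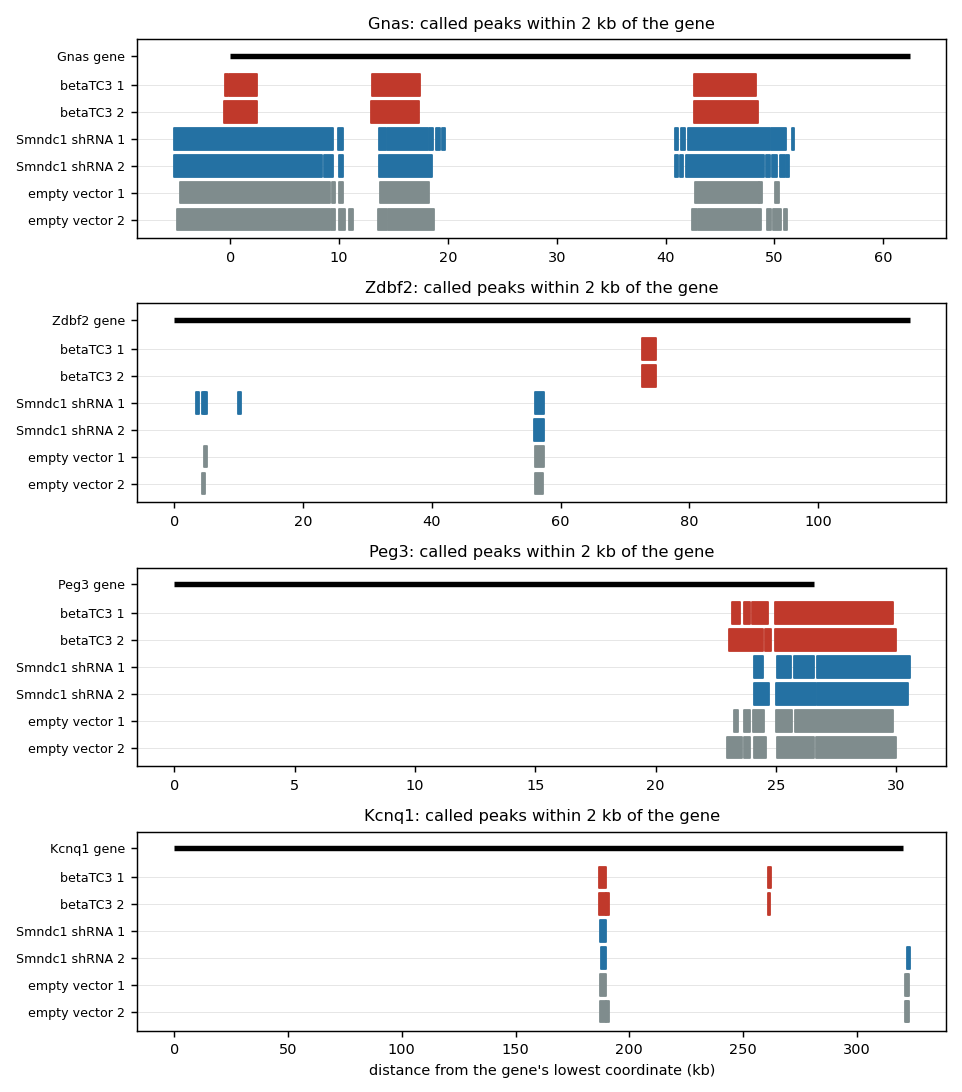
Positions of called peaks within 2 kb of Gnas, Zdbf2, Peg3 and Kcnq1 in each library, as distance in kb from the lowest coordinate of the gene (black bar), with betaTC3 in red, Smndc1 shRNA in blue and empty vector in grey. The peak at the left end of Gnas is 2571 and 3052 bp wide in betaTC3 and at least 13628 bp in the alphaTC1 libraries, and the Zdbf2 peaks lie at different places in the lines.

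The knockdown of Smndc1 changed no imprinted window past the threshold. None of the 34 assigned and none of the 24 nearby windows had an adjusted p below 0.05 in limma for knockdown minus empty vector, and neither did any of the 17641 windows (0.0%). The smallest limma adjusted p was 0.117 among imprinted windows and 0.0641 overall. At an unadjusted p below 0.05, 15 of the 34 assigned windows passed, against 35.0% of all windows, and with the libraries centred 6 passed, against 13.1%. edgeR and DESeq2 on whole reads called 0 imprinted windows, and the share of all windows they called is not given. Without knockdown replicate 2, limma did call imprinted windows, but that fit leaves the knockdown group with no replicate. The share of all windows called in it is not given either, so its calls are no result about imprinted genes. The median log2 difference of the assigned windows was -0.42, and that of all windows was -0.37.

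After centring, 5 of the 58 assigned and nearby windows combined a log2 difference beyond 1 with an unadjusted limma p below 0.05. They were chosen here after their values were seen. By the p-value alone 11 of the 58 passed, against 13.1% of all windows. The share of all windows that met both conditions is not given, so the number 5 is no result about imprinted genes. A faint window upstream of the downstream Gnas starts (chr2:174325113-174325513) had 3.99 and 8.56 scaled reads in betaTC3, 27.5 and 30.7 in knockdown cells and 0 and 7.1 in empty-vector cells (log2 knockdown minus empty vector 3.40 ± 0.92, limma adjusted p = 0.117). Its neighbour at chr2:174325659-174326059 had 4.79 and 14.3 in betaTC3, 32.2 and 29.3 in knockdown cells and 10.6 and 12.4 in empty-vector cells (log2 knockdown minus empty vector 1.35 ± 0.47, limma adjusted p = 0.124). Between betaTC3 and empty vector neither of these Gnas windows passed, except the first without empty vector replicate 2 (adjusted p = 0.00758) and the second without betaTC3 replicate 2 (0.0271). Both lay under 2 of the 3 imprinted regions that had a peak in both knockdown libraries alone, and the third was in Inpp5f, where 26.4 and 19 in betaTC3 and 28.7 and 25.2 in knockdown cells stood against 23.8 and 20.4 in empty-vector cells. Such regions made up 4.35% of imprinted and 1.23% of all regions. These peaks were shallow, with a fold over background of 3.88 to 5.85 as given by the authors.

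The other 3 of these windows were also faint in the knockdown and empty-vector cells. The Kcnq1 window at chr7:143367713-143368113 had 15.5 and 15.4 scaled reads in knockdown cells against 3.97 and 8.88 in empty-vector cells (log2 1.23 ± 0.38, limma adjusted p = 0.119). The Igf2 window had 9.56 and 5.59 in knockdown cells against 2.65 and 5.33 in empty-vector cells (log2 0.80 ± 0.37, limma adjusted p = 0.166). A window 4372 bp past the end of Peg13 had 1.19 and 5.59 in knockdown cells against 17.2 and 21.3 in empty-vector cells (log2 -2.41 ± 0.51, limma adjusted p = 0.117). In these 5 windows the knockdown and empty-vector libraries did not overlap, nor did they in 24 of the 34 assigned windows and 71.5% of all windows. Without knockdown replicate 2 the log2 difference of the Peg13 window was -3.2. No imprinted gene had a peak in both knockdown libraries and in neither empty-vector library (background 0.26%) or the reverse (background 0.116%). The 1 imprinted region with a peak in both empty-vector libraries alone lay past the end of Kcnq1 (chr7:143427909-143428595).

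Set against the knockdown cells, betaTC3 again differed at most imprinted windows. Of the 34 assigned windows, 26 (76.5%) passed, 17 higher and 9 lower, against 60.6% of all windows, with 36.6% higher and 24.0% lower, and in 29 the libraries did not overlap, as in 81.0% of all windows. This comparison shares the betaTC3 libraries with the one above, so its values are given side by side and not as separate support. Mkrn3 differed by -5.22 from knockdown cells and -5.38 from empty-vector cells on the log2 scale, Mest by -6.55 and -6.93, Igf2 by 6.29 and 7.08, and Peg3 by 1.42 and 0.87. Windows called here that were not called against the empty vector included the Kcnq1ot1 window before the start (log2 1.07 ± 0.34, limma adjusted p = 0.031), the inner Peg3 window (log2 1.15 ± 0.22, limma adjusted p = 0.00496) and the Trappc9 start (log2 0.91 ± 0.17, limma adjusted p = 0.00399). The median over all windows was 0.23 in this comparison. With each library centred on its median, 15 of the 34 assigned windows were called higher and 12 lower. Of all 17641 windows, 6334 were then called higher and 5894 lower.

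Other imprinted genes were taken from a list of 48, of which 24 had 37 windows that were not counted above. Of these, 12 were higher and 11 lower in betaTC3 than in empty-vector cells (62.2%), against 55.2% of all windows, and none was called between knockdown and empty vector. Ppp1r9a, a neighbour of Peg10 that encodes a neuronal actin-binding protein, had 0.799 and 0.952 scaled reads in betaTC3, 438 and 530 in knockdown cells and 600 and 600 in empty-vector cells (log2 -8.33 ± 0.19, limma adjusted p = 5.41e-06). Begain, a gene upstream of Dlk1, had 2.4 and 0 in betaTC3, 334 and 423 in knockdown cells and 353 and 368 in empty-vector cells. Tnfrsf23, a decoy death receptor in the Kcnq1 cluster, had 99.8 and 101 in betaTC3 and 0 in all alphaTC1 libraries, and Phactr2, next to Plagl1, had 80.7 and 74.2 in betaTC3, 3.58 and 2.80 in knockdown cells and 0 and 0 in empty-vector cells.

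Of genes that maintain imprints, from a list of 29, 22 genes had 24 windows, of which 2 were higher and 7 lower in betaTC3 than in empty-vector cells (37.5%), against 55.2% of all windows, or 6 and 8 with the libraries centred. Zfp445, a zinc finger protein that guards imprints beside ZFP57, had 220 and 205 scaled reads in betaTC3, 386 and 511 in knockdown cells and 551 and 578 in empty-vector cells (log2 -1.41 ± 0.16, limma adjusted p = 0.00046). A window assigned to Cbx5, heterochromatin protein 1 alpha, was lower in betaTC3 (log2 -3.29), and those at the starts of Tet3, which oxidises methylated cytosine, and Yy1, a factor that binds several imprinting control regions, were higher in betaTC3 by 1.45 ± 0.38 and 0.98 ± 0.25. Trim28, the partner of ZFP57, had 1009 and 679 in betaTC3, 532 and 738 in knockdown cells and 982 and 918 in empty-vector cells, which overlapped. The knockdown gave no call in this list.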

How the data were processed

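ChIP-seq libraries labelled H3K9me3 (Active Motif antibody) came from betaTC3 (n = 2), alphaTC1 with Smndc1 shRNA (n = 2) and alphaTC1 with empty vector (n = 2), with 1 input per group. Per the submitters' processing notes, Bowtie2 2.4.1, Picard 2.19.2, MACS2 2.2.7.1 and the build mm10 (GRCm38) were used, and how they were run is not stated. The authors deposited 1 peak list per library, with a score, a ratio (fold over background), −log10 p-values and −log10 q-values. They also deposited a window table of normalised signal (coverage) per library. All deposited signal values were whole multiples of 1 step per library within 0.001, so whole reads were recovered. Neither the origin of the steps nor any subtraction of input reads is stated in the labels or headers.

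limma 3.58.1 with an intensity trend was fitted to log2(scaled reads + 1) of 17641 windows and all 6 libraries, with a mean per group. P-values were adjusted by Benjamini-Hochberg over all windows, with calls below 0.05. A fold change on this scale understates low windows. Folds printed in words are ratios of group means. A group with 0 reads was set to 3 reads per library (2.40 to 4.19 scaled reads), written as at least; with 1 to 3 reads the pooled ratio has its exact 95% counting interval. These cover counting error only. Peaks within 2 kb of a RefSeq (GRCm38.p6) gene were counted. Replicate numbers were checked for pairing and did not pair the libraries. The ZFP57 hexamer was searched in RefSeq promoters in place of the windows, since no genome was used here.

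The members and gene lists were chosen with earlier results of these data known. Every member was named. Windows of 8 clusters, and windows called between betaTC3 and empty vector, were given with their value in each library. Members with no promoter entry were Trappc9, Impact, Sgce, Kcnq1, Cdkn1c, H19, Rtl1, Peg10 and Peg13. edgeR 4.0.16, DESeq2 1.42.0, other pseudocounts, scalings and filters, and each library left out were tried as alternatives. Scripts ran in R 4.3.3 and in Python 3.11.15 with scipy 1.17.1, numpy 2.4.6, pandas 2.3.3 and matplotlib 3.10.9.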

Additional observations from a re-analysis of the deposited data

How the results depend on the processing

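The number of the 34 imprinted windows called between betaTC3 and empty vector was 24 with the replicate block, 29 by edgeR and 27 by DESeq2. The number between betaTC3 and knockdown was 25 with the replicate block. With 1 library left out these numbers moved. The share of all windows called under each of these settings is not given. The counts therefore show how calls move with the setting and are no result about imprinted genes. Between knockdown and empty vector the number was 0 with the replicate block and under every other alternative run, except without knockdown replicate 2. That fit leaves 1 knockdown library. Counting the nearby windows too gave 42 calls for betaTC3 minus empty vector and 45 for betaTC3 minus knockdown, by construction since more windows were counted. Deviations of same-numbered libraries correlated at 0.085 (betaTC3 and empty vector), -0.0079 (knockdown and empty vector) and -0.176 (betaTC3 and knockdown), which is no pairing. Crossing the numbers of betaTC3 and knockdown, chosen after seeing the data, gave 26 calls. Restricted to peaks at or above the median −log10 q of their list, imprinted genes with a peak numbered 18 in betaTC3 replicate 1, 16 and 18 in knockdown replicates 1 and 2, and 18 in each empty-vector library, by construction since fewer peaks were counted. The share of RefSeq genes under that restriction is not given.

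Of the log2 changes betaTC3 minus empty vector, 7 windows that were not called changed sign under some alternative. With 1 library left out, 3 Gnas windows ranged from -0.01 to 0.16, from -0.23 to 2.79 and from -1.11 to 0.29, Copg2 from -0.56 to 0.15, Herc3 from -0.25 to 0, Snrpn (chr7:60243573-60243973) from -0.56 to 0.17 and Inpp5f (chr7:128672146-128672546) from -0.2 to 0.25. Under other settings Copg2 gave 0.06 by DESeq2, Herc3 0.06 with centred libraries, 0.06 by edgeR and 0.11 by DESeq2, and Snrpn 0 by DESeq2. The cause was not tested. Fitted log2 values of windows at or near 0 depend on the pseudocount: Rasgrf1 at its start was 11.98 at 0.1 and 5.37 at 10 scaled reads, and Mest -8.76 and -4.49. The hexamer search in windows of other lengths was not run. Depth of 4530066 to 9924487 reads limits the faint windows, where a few reads decide a value.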
